A study of Mus musculus with 48 samples.

Results

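Efemp1, Cdh11, Tgfbi, Mmp2, Slc4a4, Hivep3, Emb, Ptgis and Nid2 are 9 genes whose signal lay far lower in fibroblasts without Zfp36 than in fibroblasts with it. They were chosen from these data as the genes most lower in KO at both 0 and 120 min of actinomycin D, so their differences at those times describe the choice and carry no test. They are 9 of 18193 genes with a probe set of their own on the array, of which 13018 were tested, and all 24 probe sets annotated to 1 of the 9 symbols alone were taken, of 45037 that are not controls. The product of Zfp36 is tristetraprolin (TTP), which recognises AU-rich stretches of transcripts and speeds up their removal.

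The KO group is a fibroblast line with Zfp36 disrupted (Zfp36 -/-), and the WT group is a line with Zfp36 intact (Zfp36 +/+). Both came from littermate E14.5 embryos with parents heterozygous for Zfp36, of strain 129/B6, from the body without head and organs. Both lines were starved for 16 h at 0.5% serum and restimulated with 10% serum, and after 90 min actinomycin D, an inhibitor of transcription, was added for 0, 30, 60, 90 or 120 min. The dose was 5 µg/ml by the series text and 0.5 µg/ml by the sample names. Each sample combined 3 dishes. The labels appear to describe 1 line per genotype, and if so the genotype and any other difference between 2 lines cannot be told apart. The work was repeated on 5 days, each time with KO and WT in parallel, and each repeat is called an experiment here. It gave 23 KO and 25 WT arrays. KO at 0 min lacked experiment 5 and KO at 60 min lacked experiment 4, so these groups held 4 arrays and all others 5. With bulk RNA, fewer cells carrying a transcript and less of it per cell cannot be told apart.

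As background, fibroblasts build and remodel the extracellular matrix, the network of collagens, glycoproteins and elastic fibres around cells. Efemp1 encodes fibulin-3, a secreted glycoprotein of the fibulin family that associates with elastic fibre and basement membrane components. Nid2 encodes nidogen 2, which links laminin and collagen IV networks in basement membranes. Tgfbi encodes an extracellular protein with FAS1 domains that binds integrins and collagens and is named for its induction by TGF-beta. Mmp2 encodes a matrix metalloproteinase that cleaves gelatin and collagen IV. Cdh11 encodes a cadherin of mesenchymal cells, an adhesion molecule that joins neighbouring cells through calcium-dependent contacts. Emb encodes embigin, a transmembrane protein of the immunoglobulin superfamily that acts in adhesion and as a partner of monocarboxylate carriers. The other genes do not encode matrix or adhesion proteins: Slc4a4 encodes a sodium bicarbonate cotransporter that moves base across the plasma membrane, Ptgis encodes prostacyclin synthase, and Hivep3 encodes a large zinc finger protein that regulates transcription. The name matrix and adhesion therefore covers 6 of the 9 genes.

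In the GRCm38.p6 assembly the genes lie on 7 chromosomes. Cdh11 and Mmp2 share chromosome 8, at 102632095 to 102785493 and 92827290 to 92853421, and Tgfbi and Emb share chromosome 13, at 56609586 to 56639359 and 117220573 to 117274415. Efemp1 lies on chromosome 11, Slc4a4 on 5, Hivep3 on 4, Ptgis on 2 and Nid2 on 14. The genes that share a chromosome lie far apart on it.

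Promoter sequences are shown because the genes stood low together, for the gene with the widest difference on the deposited values (Efemp1), the gene whose KO signal split by experiment (Tgfbi), the gene whose KO signal reached the floor (Emb) and the gene whose WT signal fell most after actinomycin D (Hivep3). Each runs from 250 bases before to 50 bases after the annotated start, 5′ to 3′ on the plus strand, from RefSeq on GRCm38.p6, in which 5 of the 9 genes were matched with 6 windows. The windows printed are chr11:28852955-28853254 for Efemp1, chr13:56609336-56609635 for Tgfbi, chr13:117220323-117220622 for Emb and chr4:119814428-119814727 for Hivep3. The window of Hivep3 lies inside the span of the gene, 119733759 to 120138045, and not at its outer end. Both windows of Slc4a4 likewise lie inside its span, 88793858 to 89239656. Which starts these cells use was not measured. Capitals mark matches, on either strand, to 4 short motifs. The AP-1 element was searched as TGANTCA. The GC box was searched as GGGCGG, the CCAAT box by the letters of its name, and the TATA box was searched as TATAAA.
Efemp1: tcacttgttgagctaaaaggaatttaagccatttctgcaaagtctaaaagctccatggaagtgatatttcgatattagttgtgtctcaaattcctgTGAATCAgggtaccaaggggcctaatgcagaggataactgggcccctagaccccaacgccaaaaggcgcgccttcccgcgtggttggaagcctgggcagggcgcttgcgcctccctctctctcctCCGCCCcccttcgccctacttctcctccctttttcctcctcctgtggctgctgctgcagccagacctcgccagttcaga
Tgfbi: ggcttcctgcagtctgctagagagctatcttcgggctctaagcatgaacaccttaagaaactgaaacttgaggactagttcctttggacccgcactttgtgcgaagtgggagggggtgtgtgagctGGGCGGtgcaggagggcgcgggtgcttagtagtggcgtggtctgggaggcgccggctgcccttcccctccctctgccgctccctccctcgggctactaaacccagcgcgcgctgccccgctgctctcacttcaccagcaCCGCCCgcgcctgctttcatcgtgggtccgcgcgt
Emb: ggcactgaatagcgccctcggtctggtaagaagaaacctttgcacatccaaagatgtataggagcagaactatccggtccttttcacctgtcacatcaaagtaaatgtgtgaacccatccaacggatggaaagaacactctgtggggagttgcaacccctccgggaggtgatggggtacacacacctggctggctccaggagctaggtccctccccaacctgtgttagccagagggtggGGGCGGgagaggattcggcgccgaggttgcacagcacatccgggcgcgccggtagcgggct
Hivep3: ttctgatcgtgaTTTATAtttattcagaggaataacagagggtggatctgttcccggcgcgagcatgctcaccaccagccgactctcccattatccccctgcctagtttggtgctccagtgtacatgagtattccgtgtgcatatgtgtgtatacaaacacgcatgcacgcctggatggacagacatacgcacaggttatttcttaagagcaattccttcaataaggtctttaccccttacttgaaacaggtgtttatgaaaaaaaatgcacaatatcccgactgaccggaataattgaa
The motifs were not shared by all windows. The AP-1 element matched in 1 of 6 windows, that of Efemp1, against 7.81% of the 32851 promoters in the table. The GC box matched in 4 of 6, those of Efemp1, Tgfbi, Emb and 1 of the 2 of Slc4a4, against 35.7% of all promoters. The TATA box matched in the window of Hivep3 alone, against 13.6% of promoters, and the CCAAT box in the other window of Slc4a4, against 37.4%. The windows differed in base composition. The G and C share was 63.3% with 22 CpG sites for Tgfbi, 57.7% with 14 for Emb, 54.3% with 11 for Efemp1 and 44.3% with 11 for Hivep3, beside medians of 52.7% and 7 over all promoters. The windows of Slc4a4 stood furthest apart among the 6, with 50 CpG sites at chr5:88887010-88887309 and 3 at chr5:89027716-89028015. Of all promoters, 0.855% held 50 or more. A match is a description of these letters and not a bound site.

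Signals are the log2 values the authors deposited, in which 1 unit is a change by a factor of 2. Array medians lay between 8.47 and 8.56, and 5 in 100 probe sets of an array lay below 8.02 to 8.13, so values close to 8 carry little or no signal. The floor used here is 8.131, the highest of these 5th percentiles. Where a KO mean lay at or under it, the fold is computed against the floor and given as a lower bound. Arrays of 1 group correlated at 0.959 to 0.996 and no 2 of them were identical. Zfp36 itself had 1 probe set tested, with 9.601, 9.581, 9.278 and 9.589 in KO and 9.835, 10.135, 9.828, 9.686 and 9.833 in WT at 0 min. KO was lower there without overlap, by a small margin beside the 9 genes, and over 30 to 90 min the lines differed by 0.0004 (limma, adjusted p = 0.996). The Zfp36 signal had dropped by then in both lines, to means of 8.67 in KO and 8.74 in WT at 30 min. At 90 min they were 8.19 and 8.14, near the floor, where a difference could not be measured. No source used here places this probe set relative to the disrupted part of Zfp36, so it does not check the genotype.

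The fibroblast origin of both lines was checked with 13 fibroblast markers, whose mean log2 signal was 10.86 to 11.14 over the KO arrays and 10.71 to 10.998 over the WT arrays. Vim averaged 13.07 in KO and 13.24 in WT and Col1a2 12.55 in KO and 12.50 in WT, while Thy1 was at the floor in both, with 8.08 in KO and 8.12 in WT. The list means of other cell types' markers were lower than that of the fibroblast markers and overlapped between the lines, although single genes stood higher. The mean over 9 epithelial markers was 8.35 to 8.42 in KO and 8.34 to 8.52 in WT, and over 8 endothelial markers 8.25 to 8.40 in KO and 8.27 to 8.46 in WT. Over 8 macrophage and blood markers it was 8.47 to 8.68 in KO and 8.42 to 8.69 in WT, and over 10 muscle markers 8.61 to 8.74 in KO and 8.59 to 8.78 in WT. Over 8 neural markers it was 8.79 to 8.91 in KO and 8.71 to 8.90 in WT, and over 7 cartilage and bone markers 8.55 to 8.81 in KO and 8.59 to 8.88 in WT. Within these lists Tubb3, a neuronal tubulin, differed between the lines, with 9.507 to 9.916 in KO and 8.751 to 9.168 in WT. Map2, a microtubule protein of neurons, averaged 10.11 in KO and 10.31 in WT, Sox9, a factor of cartilage, 9.71 in KO and 9.88 in WT, and Acta1, a muscle actin, 9.46 in both. Their part in the differences of the 9 genes was not tested. The fibroblast list is not uniform. Of its 12 genes tested, 4 were lower in KO over 30 to 90 min, 6 higher and 2 not called (limma, adjusted p under 0.05). Over all genes tested, 23.4% were lower and 25.2% higher. Widest apart was Pdgfra, a receptor of mesenchymal cells, averaging 10.22 in KO and 8.92 in WT, the opposite direction to the 9 genes.

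The choice of members can be seen in the ranking of 13018 genes by the weaker of their KO minus WT differences at 0 and 120 min. The first 8 places were held by Efemp1, Cdh11, Tgfbi, Mmp2, Slc4a4, Emb, Ptgis and Nid2, and Hivep3 held place 12. Nid2, just inside, differed by -2.19 at 0 min and -2.14 at 120 min, and Hivep3 by -2.36 and -1.95. The genes between them that are not among the 9 were Igfbp7, which encodes an IGF-binding secreted protein, with -2.03 and -1.99, Thbs2, a matricellular thrombospondin, with -1.96 and -2.03, and Mgp, matrix Gla protein, with -1.96 and -1.95. These are descriptions of the arrays that chose the genes.

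The arrays at 30, 60 and 90 min were not used in the choice, and in these 14 KO and 15 WT arrays all 9 genes were lower in KO on their main probe set, the one with the highest mean over all arrays. They come from the same lines and experiments as the other arrays, so they test the spread between arrays within groups and not between independent lines. Of the 24 probe sets, 20 passed the filter on low values, and 19 of these 20 were called lower and 0 higher (limma, adjusted p under 0.05). The background is high: 22.4% of all 27500 probe sets tested were called lower and 22.7% higher. Differences of at least 1 log2 unit were rarer, with 17 of the 20 lower by that much against 0.527% of all. In 19 of the 20, every KO array lay below every WT array at 30 to 90 min, against 4.26% of all, and 0 of the 20 lay wholly above, against 3.94%. At all 5 times together, the choosing arrays included, 19 of the 20 lay wholly below, against 2.49% of all. The median difference of the 20 was -2.34, beside -0.01 over all probe sets tested. Of the 20, 10 passed the filter through their WT signal alone and 10 would have passed on the KO arrays too, so these counts describe the set and were not tested as a set.

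The folds given for each gene are folds of the deposited signal. With the 5th percentile of each array subtracted before log2, the differences over 30 to 90 min widened for all 9 genes and their order changed. KO minus WT was then -5.09 for Cdh11, -4.85 for Emb, -4.47 for Efemp1, -4.43 for Slc4a4, -3.94 for Ptgis, -3.86 for Hivep3, -3.63 for Mmp2, -3.52 for Tgfbi and -3.30 for Nid2.

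**Figure D1:**
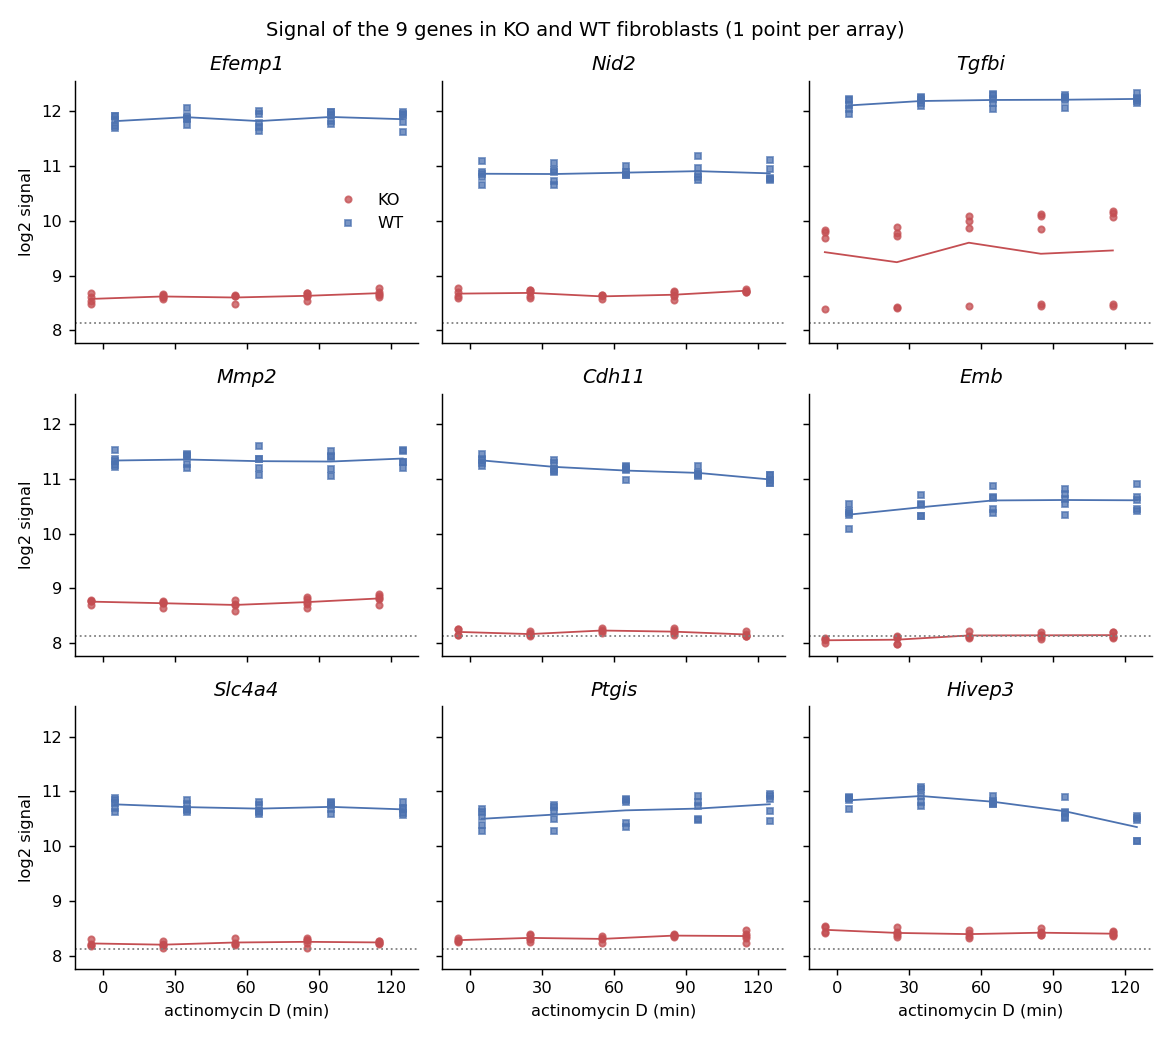
Log2 signal (vertical axis) of the main probe set of each of the 9 genes against minutes of actinomycin D (horizontal axis), with KO arrays as red circles left of WT arrays as blue squares, group means joined by lines and the floor of 8.131 dotted. KO and WT arrays do not overlap for any of the 9 genes at any time, and the KO arrays of Tgfbi alone fall into 2 clusters.

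Among the secreted matrix proteins, Efemp1 stood furthest apart on the deposited values. Its log2 signal over 30 to 90 min was 8.491, 8.623 and 8.691 in KO as lowest, median and highest (n = 14), against 11.649, 11.885 and 12.063 in WT (n = 15). KO minus WT was -3.25 ± 0.037 log2 units (SE), or 9.54-fold lower in KO (limma, adjusted p = 7.47e-32). The same distance was seen in each experiment, with KO minus WT of -3.17, -3.21, -3.23, -3.27 and -3.36 in experiments 1 to 5. Nid2 had 8.551, 8.638 and 8.745 in KO and 10.662, 10.854 and 11.185 in WT as lowest, median and highest. Its fitted difference was -2.23 ± 0.041, or 4.69-fold lower in KO (limma, adjusted p = 1.01e-26). The signal of Nid2 in KO averaged 8.65, about 0.52 above the floor but close to the array medians of 8.47 to 8.56. Efemp1 in KO averaged 8.62, 0.49 above the floor. Whether these KO values carry any transcript was not tested.

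Mmp2, the metalloproteinase, was measured by a pair of probe sets that gave the same picture. The main one, 1439364_a_at, had 8.591, 8.732 and 8.847 in KO and 11.052, 11.368 and 11.608 in WT as lowest, median and highest. The fitted KO minus WT difference was -2.61 ± 0.048 (6.09-fold lower in KO; limma, adjusted p = 1.01e-26). The other, 1416136_at, gave -2.68 ± 0.060. The difference of Mmp2 lay between -2.72 and -2.40 in the 5 experiments, and the experiment with the smallest difference was the fourth.

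Of the adhesion molecules, Cdh11 had 8.125, 8.195 and 8.275 in KO and 10.977, 11.157 and 11.350 in WT as lowest, median and highest. The difference, KO minus WT, was -2.96 ± 0.030 (7.77-fold lower in KO; limma, adjusted p = 4.31e-33), with a KO mean 0.070 above the floor. A second Cdh11 probe set, 1435120_at, showed the same direction at a smaller size, -0.83 ± 0.037. It read 8.708 to 8.886 in KO and 9.341 to 9.820 in WT over 30 to 90 min, without overlap.

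Emb had 7.980, 8.113 and 8.219 in KO and 10.316, 10.548 and 10.877 in WT. The KO mean of 8.11 was at the floor, and Emb was at least 5.41-fold lower in KO, with a fitted difference of -2.45 ± 0.049 (limma, adjusted p = 6.2e-26). The probe sets of Emb disagreed: 1415856_at gave -1.96 ± 0.045, while 1447286_at gave -0.02 ± 0.033 (limma, adjusted p = 0.742). The last one read 8.55 in KO and 8.56 in WT on average, close to the array median in both lines. It is the 1 probe set of the 20 that was not called. No source used here states which part of the transcript each probe set covers.

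Slc4a4, the bicarbonate cotransporter, had 8.138, 8.224 and 8.323 in KO and 10.585, 10.683 and 10.846 in WT as lowest, median and highest on 1434096_at. In the fit, KO minus WT was -2.47 ± 0.031 (5.56-fold lower in KO; limma, adjusted p = 4.43e-31). Its other probe sets gave smaller differences in the same direction, -1.66 ± 0.054 for 1421225_a_at, -1.46 ± 0.036 for 1452071_at and -1.19 ± 0.069 for 1426432_a_at. The last of them, 1450169_at, was too dim to test, with means of 8.16 in KO and 8.17 in WT.

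Ptgis, whose product makes prostacyclin from prostaglandin H, had 8.233, 8.348 and 8.398 in KO and 10.275, 10.711 and 10.916 in WT on its 1 probe set. KO minus WT was -2.31 ± 0.056 (4.95-fold lower in KO; limma, adjusted p = 6.43e-24). The KO arrays of Ptgis spread less than its WT arrays, with an SD within groups of 0.059 in KO and 0.21 in WT.

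Hivep3 had 8.330, 8.416 and 8.521 in KO and 10.512, 10.783 and 11.077 in WT on 1458802_at. The fitted KO minus WT difference was -2.38 ± 0.038 (5.20-fold lower in KO; limma, adjusted p = 3.37e-28). Hivep3 rests mainly on this 1 probe set of 5. Another, 1421150_at, was called lower, at -0.36 ± 0.035, and the other 3 were too dim to test, with differences of -0.08 to -0.02.

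**Figure D2:**
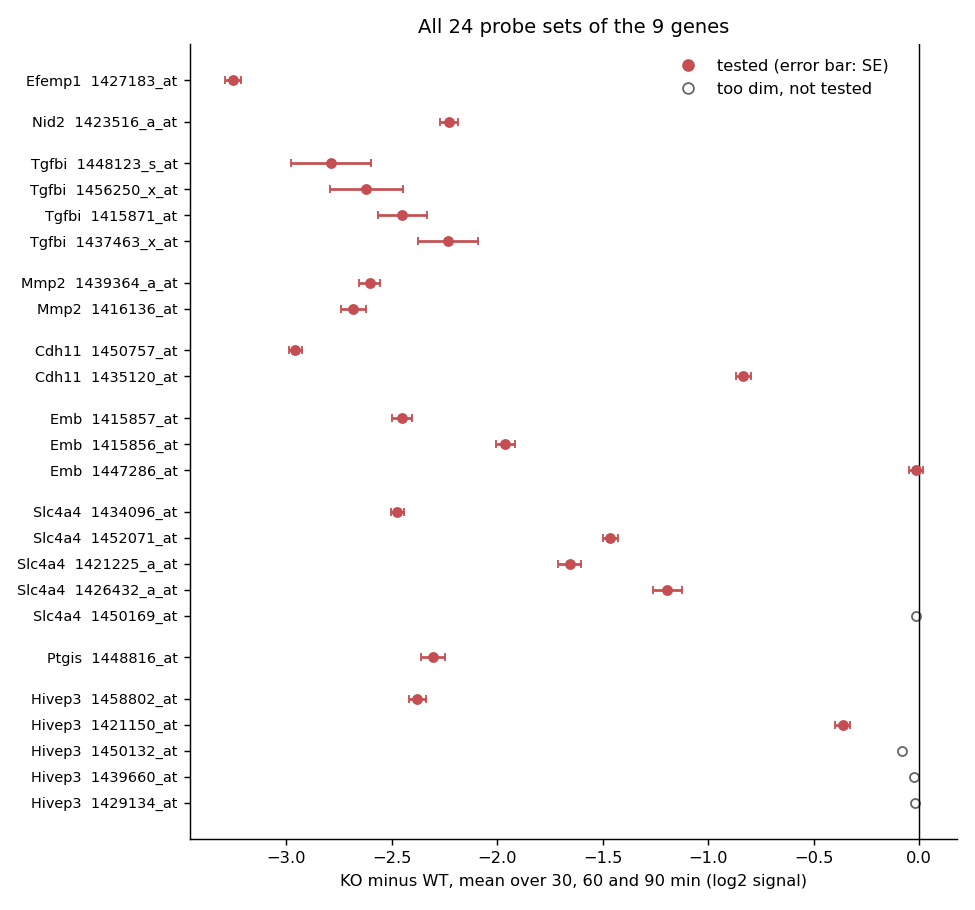
KO minus WT in log2 signal (horizontal axis), as the mean over 30, 60 and 90 min, for each of the 24 probe sets, with filled points for the 20 tested (bars are SE) and open points for the 4 too dim to test. Most probe sets lie between -3.25 and -0.83, while 1 of Emb and 3 of Hivep3 and 1 of Slc4a4 sit next to 0.

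Tgfbi was the exception in its spread. On the main probe set, 1448123_s_at, the log2 signal over 30 to 90 min was 8.407, 9.818 and 10.127 in KO as lowest, median and highest, against 12.045, 12.230 and 12.321 in WT. The difference, KO minus WT, was -2.79 ± 0.189 (6.91-fold lower in KO; limma, adjusted p = 3.33e-13), with the widest SE of the 9 main probe sets. The SD of Tgfbi within groups was 0.81 in KO and 0.094 in WT, while for the other 8 genes it was 0.045 to 0.068 in KO.

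The KO values of Tgfbi fell apart by experiment. At 0 min they were 8.399 in experiment 4 and 9.801, 9.688 and 9.827 in experiments 1 to 3. At 30 min they were 8.407 and 8.435 in experiments 4 and 5 and 9.722, 9.777 and 9.886 in experiments 1 to 3, and at 120 min 8.476 and 8.443 against 10.068, 10.172 and 10.141. Every KO array of experiments 4 and 5 thus lay below every KO array of experiments 1 to 3. Over all times the KO range was 8.399 to 8.477 in experiments 4 and 5 (n = 8) and 9.688 to 10.172 in experiments 1 to 3 (n = 15), while the WT range was 12.040 to 12.254 in experiments 4 and 5 (n = 10) and 11.948 to 12.336 in experiments 1 to 3 (n = 15). The split was present in KO and not in WT.

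All 4 probe sets of Tgfbi showed it. With KO means of experiments 4 and 5 set minus those of experiments 1 to 3, at the 3 times that hold all experiments, the shifts were -1.54, -1.38, -1.16 and -0.91. Over all 27500 probe sets these were places 1, 2, 5 and 12 from the lowest, and the WT shifts of the same probe sets lay between -0.07 and 0.07. The other probe sets among the lowest 8 belonged to Hspb1, a small heat shock protein, with -1.25 and -1.14, Nsg1 with -1.19, Mgp with -1.13 and Cemip, a hyaluronan-binding protein, with -1.02. Such separation was not limited to Tgfbi: over all arrays, experiments 4 and 5 did not overlap with experiments 1 to 3 for 1145 of the 27500 probe sets in KO (4.16%) and 254 in WT (0.924%), and of these 24 in KO and 5 in WT also shifted by at least 1 log2 unit. A KO shift of at least 1 log2 unit was seen downward in 8 and upward in 17 probe sets, against 3 and 4 in WT. The main probe sets of the other 8 genes shifted by -0.07 to 0.05 in KO. The grouping of experiments was chosen after the values were seen, so the split is a description with no test.

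The size of the Tgfbi difference depended on the experiments used. Over 30 to 90 min KO minus WT was -3.71 ± 0.052 in experiments 4 and 5 and -2.30 ± 0.042 in experiments 1 to 3. The experiments were grouped by the KO values of Tgfbi itself, so these values are a description with no test. Over all times Tgfbi was 13.1-fold lower in KO in experiments 4 and 5 and 4.83-fold lower in experiments 1 to 3. The direction was the same in all 5 experiments, at -2.47, -2.17, -2.26, -3.63 and -3.80.

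Array measures did not separate the KO experiments, with medians of 8.481 to 8.497 in experiments 4 and 5 and 8.471 to 8.538 in experiments 1 to 3, and 95th percentiles of 10.44 to 10.49 and 10.38 to 10.48. Of the 7 marker lists, the macrophage and blood list moved with the split. Its mean in KO was 8.59 to 8.68 in experiments 4 and 5 and 8.47 to 8.56 in experiments 1 to 3, without overlap, whereas in WT it was 8.49 to 8.59 and 8.42 to 8.69. The gene of that list that moved most was Cd14, a lipopolysaccharide co-receptor, at 9.494 to 10.054 in KO experiments 4 and 5 and 8.726 to 9.220 in KO experiments 1 to 3. Lyz2, a lysozyme of macrophages, was also apart, at 8.458 to 8.591 in KO experiments 4 and 5 and 8.304 to 8.442 in KO experiments 1 to 3. The medians of Csf1r and Adgre1 were higher in KO experiments 4 and 5, at 8.69 against 8.63 and 8.31 against 8.21, and those of Cd68 and Hba-a1 lower, at 8.44 against 8.54 and 8.29 against 8.38. Some moved the same way in WT. There Csf1r read 8.715 in experiments 4 and 5 against 8.616, Cd68 8.37 against 8.41 and Hba-a1 8.32 against 8.39, while Adgre1 read 8.20 against 8.19. The WT median of Cd14 was 9.07 in experiments 4 and 5 against 8.97 in experiments 1 to 3, and that of Lyz2 was 8.45 in both. Aif1 in KO had a median of 8.56 in both sets of experiments. Ptprc, which encodes the pan-leukocyte protein CD45, read 8.449 to 8.603 in KO experiments 4 and 5 and 8.429 to 8.694 in KO experiments 1 to 3, near the array median in all. The part of these markers in the Tgfbi split was not tested. The mean of the fibroblast markers overlapped, at 11.003 to 11.14 in KO experiments 4 and 5 and 10.86 to 11.10 in KO experiments 1 to 3.

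**Figure D3:**
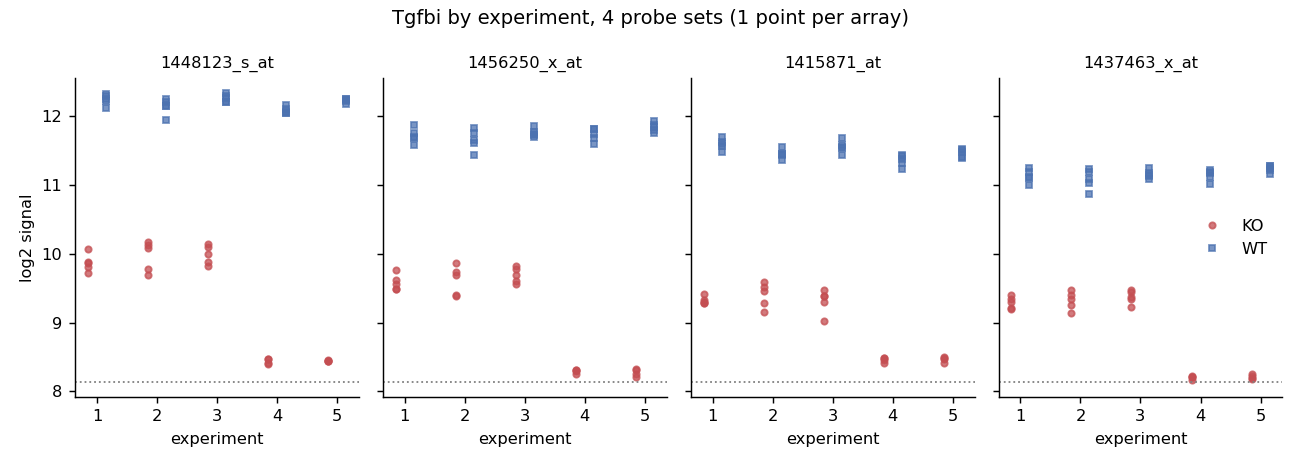
Log2 signal (vertical axis) of the 4 Tgfbi probe sets by experiment (horizontal axis), with 1 point per array, KO as red circles, WT as blue squares and the floor of 8.131 dotted. KO arrays of experiments 4 and 5 lie at 8.158 to 8.506 over the 4 probe sets, below every KO array of experiments 1 to 3, while WT arrays stay level.

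The course after actinomycin D asks how the signals moved once transcription was inhibited, relative to the array average. Over 0 to 120 min, most of the 20 tested probe sets had no slope past the threshold in WT: 2 fell, 3 rose and 15 were not called, against 15.1% falling and 13.9% rising among all 27500 (limma, adjusted p under 0.05). In KO 0 of the 20 fell and 0 rose, against 12.3% and 15% of all. The KO signals of most of these genes are close to the floor, where a fall cannot be seen. A rise here is relative to the array average and need not be new RNA.

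The genes that fell in WT were Cdh11 and Hivep3, each on its main probe set alone. Their other tested probe sets did not pass, with WT slopes of 0.002 ± 0.025 log2 per h for Cdh11 1435120_at and -0.02 ± 0.027 for Hivep3 1421150_at (limma, adjusted p = 0.968 and 0.531). The values that follow are of the main probe sets. Cdh11 in WT read 10.970, 11.069, 11.061, 10.925 and 10.917 at 120 min and 11.446, 11.297, 11.364, 11.335 and 11.239 at 0 min in experiments 1 to 5. It was lower at 120 min in every experiment, and its WT slope was -0.16 ± 0.021 log2 per h (limma, adjusted p = 1.3e-08). In the 30 to 90 min arrays alone, which did not choose the genes, the slope of Cdh11 was -0.11 and did not pass (limma, adjusted p = 0.238). Hivep3 in WT read 10.092, 10.557, 10.521, 10.093 and 10.488 at 120 min and 10.850, 10.873, 10.903, 10.677 and 10.890 at 0 min. Its WT slope was -0.25 ± 0.036 log2 per h (limma, adjusted p = 2.03e-07), the steepest fall of the 20, and in the 30 to 90 min arrays alone it was -0.28 (limma, adjusted p = 0.00401). The WT means of Hivep3 were not monotone, with the highest of the 5 group means, 10.92, above the 10.84 of 0 min.

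On the main probe sets of these genes the KO slope was above the WT slope, by 0.15 ± 0.030 log2 per h for Cdh11 and 0.23 ± 0.053 for Hivep3 (limma, adjusted p = 0.00235 and 0.0152). These were 2 of the 20 probe sets with a slope difference above 0, against 0.785% of all, and 0 of the 20 had one below 0, against 0.251%. The other tested probe sets gave -0.005 ± 0.037 for Cdh11 and 0.01 ± 0.039 for Hivep3 (limma, adjusted p = 0.983 and 0.948). In KO, Cdh11 averaged 8.16 at 120 min and 8.20 at 0 min, and Hivep3 averaged 8.40 at 120 min and 8.47 at 0 min, near the floor, where a fall in KO could not be measured. The test also used the arrays at 0 and 120 min. In the 30 to 90 min arrays alone neither difference passed (limma, adjusted p = 1.0 for both), and without experiment 1 the adjusted p-values were 0.058 for Cdh11 and 0.253 for Hivep3. With the array background subtracted they were 0.639 and 0.317 (limma). Cdh11 also missed the threshold without experiment 4 (limma, adjusted p = 0.0528) and Hivep3 without experiment 5 (limma, adjusted p = 0.0577).

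Emb and Ptgis rose in WT relative to the array average. Emb in WT read 10.620, 10.403, 10.444, 10.669 and 10.902 at 120 min and 10.539, 10.331, 10.076, 10.369 and 10.412 at 0 min, higher at 120 min in each experiment. Its slope was 0.13 ± 0.037 log2 per h on the main probe set and 0.13 ± 0.034 on 1415856_at (limma, adjusted p = 0.00493 and 0.00258). Ptgis in WT read 10.871, 10.913, 10.963, 10.635 and 10.455 at 120 min and 10.617, 10.683, 10.539, 10.390 and 10.276 at 0 min, with a slope of 0.13 ± 0.040 (limma, adjusted p = 0.0106). It too was higher at 120 min in each experiment. Without experiment 3 the slope of Ptgis had an adjusted p of 0.058, and without the 0 min arrays neither gene passed (0.342 for Emb and 0.171 for Ptgis).

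Tgfbi in KO had no slope past the threshold over all experiments, at 0.05 ± 0.148 log2 per h (limma, adjusted p = 0.868). In experiments 1 to 3 alone, where its KO signal stood well above the floor, the slope was 0.19 ± 0.031 log2 per h, and 0.12 to 0.19 over all 4 of its probe sets. These experiments were grouped after the KO values of Tgfbi were seen, so the rise is a description with no test. In WT the Tgfbi slope was 0.05 ± 0.142 over all experiments. The fit shares 1 spread between the lines, and the SD of Tgfbi within groups was 0.81 in KO and 0.094 in WT. This SE therefore carries the KO split and does not measure the WT spread, so whether Tgfbi moved in WT is not decided here. Efemp1, Mmp2, Slc4a4 and Nid2 had WT slopes of -0.04 to 0.02, none past the threshold.

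Within WT, the 9 genes did not rise and fall as 1 group from experiment to experiment. Over the 25 WT arrays, the deviations from the group means gave 36 pairs of genes with Pearson r of -0.80 to 0.82 and a median of 0.15. Of these pairs, 22 were above 0 and 8 above 0.5. Arrays of 1 experiment share day, handling and scaling, so r is a description. The closest pairs were Mmp2 with Ptgis at 0.82, Cdh11 with Slc4a4 at 0.81 and Cdh11 with Ptgis at 0.77. Emb ran opposite to Mmp2, at -0.80, and to Ptgis, at -0.70, and Efemp1 opposite to Ptgis, at -0.73.

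The opposed genes can be seen in the mean deviations per experiment. Ptgis in WT stood at 0.15, 0.17, 0.11, -0.15 and -0.27 in experiments 1 to 5, and Mmp2 at 0.03, 0.10, 0.16, -0.15 and -0.14. Emb stood at 0.07, -0.16, -0.18, 0.06 and 0.21, and Efemp1 at -0.11, -0.01, -0.07, 0.06 and 0.13. Ptgis and Mmp2 were thus lower in experiments 4 and 5 than in experiments 1 to 3, and Efemp1 was higher. The distance between the lines followed: KO minus WT of Ptgis over 30 to 90 min was -2.50, -2.46, -2.41, -2.14 and -2.03, while that of Emb was -2.42, -2.30, -2.33, -2.51 and -2.70.

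**Figure D4:**
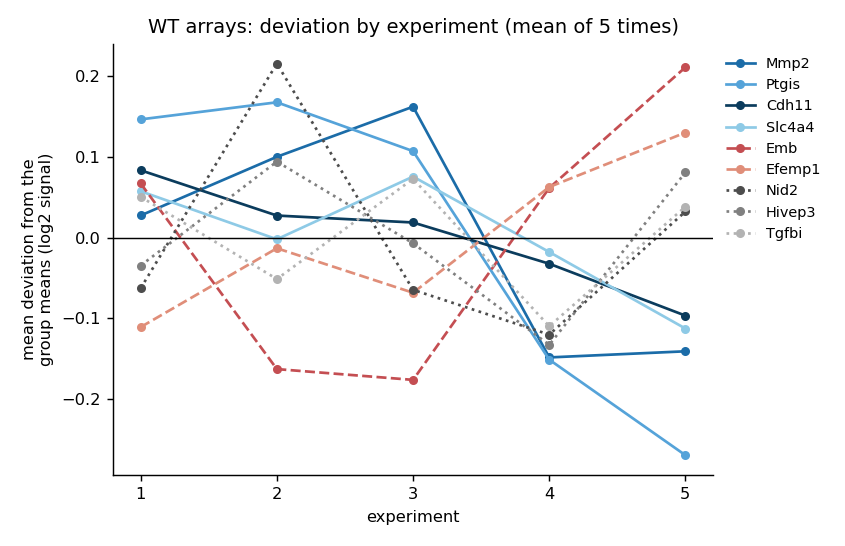
Mean deviation from the WT group means in log2 signal (vertical axis) by experiment (horizontal axis), 1 line per gene and 5 WT arrays per point. Ptgis and Mmp2 lie below 0 in experiments 4 and 5, Emb and Efemp1 above 0, and deviations stay within -0.27 and 0.22.

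Related genes were counted in lists around each of the 9, with 1 probe set per gene and the 9 left out. Over all 13018 genes tested, 23.4% were lower and 25.2% higher in KO over 30 to 90 min (limma, adjusted p under 0.05), with a median of -0.01. Values below are KO minus WT in log2 units with their SE. The lists were mixed in direction, and their medians lay between -0.17 and 0.14. None of the lists as a whole stood near the 9 genes, which ranged from -3.25 to -2.23. The 9 were chosen for being among the lowest genes and were left out of the lists, so this gap follows from the choice.

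Among 21 measured genes of fibrillar collagens and interstitial matrix, 12 fell, 7 rose and 2 were not called, with a median of -0.17. Thbs2, a matricellular thrombospondin, stood at -2.01 ± 0.068 and Col6a3, a collagen VI chain, at -0.95 ± 0.117, while Tnc, the matricellular protein tenascin C, was higher by 1.52 ± 0.098 and Lum, the proteoglycan lumican, by 0.39 ± 0.052. Among 15 genes of elastic fibres and fibulins, the relatives of Efemp1, 4 fell, 7 rose and 4 were not called, with a median of 0.14. Fbln1, another secreted fibulin, stood at -1.14 ± 0.089 and Ltbp3, a latent TGF-beta binding protein, at -0.22 ± 0.059. Mfap2, a microfibril protein, was higher by 1.20 ± 0.051 and Ltbp4 by 0.77 ± 0.036.

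Among 17 basement membrane genes, the partners of Nid2, 4 fell, 3 rose and 10 were not called, with a median of -0.04. The collagen IV chains Col4a1 and Col4a2, which share a basement membrane trimer, stood at -1.40 ± 0.087 and -0.95 ± 0.073. Agrn, the proteoglycan agrin, was higher by 0.68 ± 0.043 and Lama4, a laminin chain, by 0.38 ± 0.049. Nid1, the paralog of Nid2, averaged 11.13 in KO and 11.22 in WT, a difference of -0.08 ± 0.039 that did not pass (limma, adjusted p = 0.0847).

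Among 13 integrins and FAS1 proteins, the receptors and relatives of Tgfbi, 3 fell, 5 rose and 5 were not called, with a median of 0.01. Postn, periostin, a FAS1 protein like Tgfbi, stood at -1.89 ± 0.151, and Itga1, a collagen-binding integrin chain, at -1.12 ± 0.059. Itga8 was higher by 0.62 ± 0.079 and Itgb8 by 0.39 ± 0.047. Among 13 TGF-beta ligands, receptors and Smads with target genes, 5 fell, 4 rose and 4 were not called, with a median of 0.07. The ligand Tgfb2 stood at -0.67 ± 0.092 and Ccn2, a target of the pathway, at -0.55 ± 0.10, while Smad4 and Smad7 were each higher by 0.15.

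Among 13 matrix metalloproteinases and inhibitors, 4 fell, 3 rose and 6 were not called, with a median of -0.05. The inhibitors split: Timp3 stood at -0.58 ± 0.143 and Timp1 at -0.31 ± 0.055, while Timp2, which takes part in activating the Mmp2 protein, was higher by 0.31 ± 0.020. Mmp14, the membrane protease that activates Mmp2 protein, was higher by 0.31 ± 0.053. Among 13 cadherins and catenins, 3 fell, 1 rose and 9 were not called, with a median of -0.02. Cdh2, N-cadherin, stood at -0.43 ± 0.041 and Ctnnd1, a cadherin-binding catenin, at -0.29 ± 0.035, and Jup, plakoglobin, was higher by 0.65 ± 0.029.

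Among 8 prostanoid genes 2 fell, 3 rose and 3 were not called, with a median of -0.03. Ptges, prostaglandin E synthase, stood at -0.51 ± 0.038 and Ptges2 at -0.19 ± 0.026, and Ptgs2, the inducible cyclooxygenase upstream of Ptgis, was higher by 0.41 ± 0.028 and Ptgds by 0.37 ± 0.061. Among 7 bicarbonate and acid-base transporters 1 fell, 4 rose and 2 were not called, with a median of 0.06, including Car13 at -0.23 ± 0.091, Slc4a2 at 0.35 ± 0.052 and Car12 at 0.20 ± 0.018. Among 7 genes of the basigin family and monocarboxylate carriers, the relatives and partners of Emb, 3 fell, 1 rose and 3 were not called, with a median of -0.02. Slc16a4 stood at -0.56 ± 0.031 and Nptn, neuroplastin, at -0.35 ± 0.029, and the carrier Slc16a1 was higher by 0.40 ± 0.058. Of 4 HIVEP and related zinc finger regulators, Zeb1 fell by 0.14 ± 0.046, Hivep2 rose by 0.27 ± 0.047 and 2 were not called, with a median of -0.09.

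**Figure D5:**
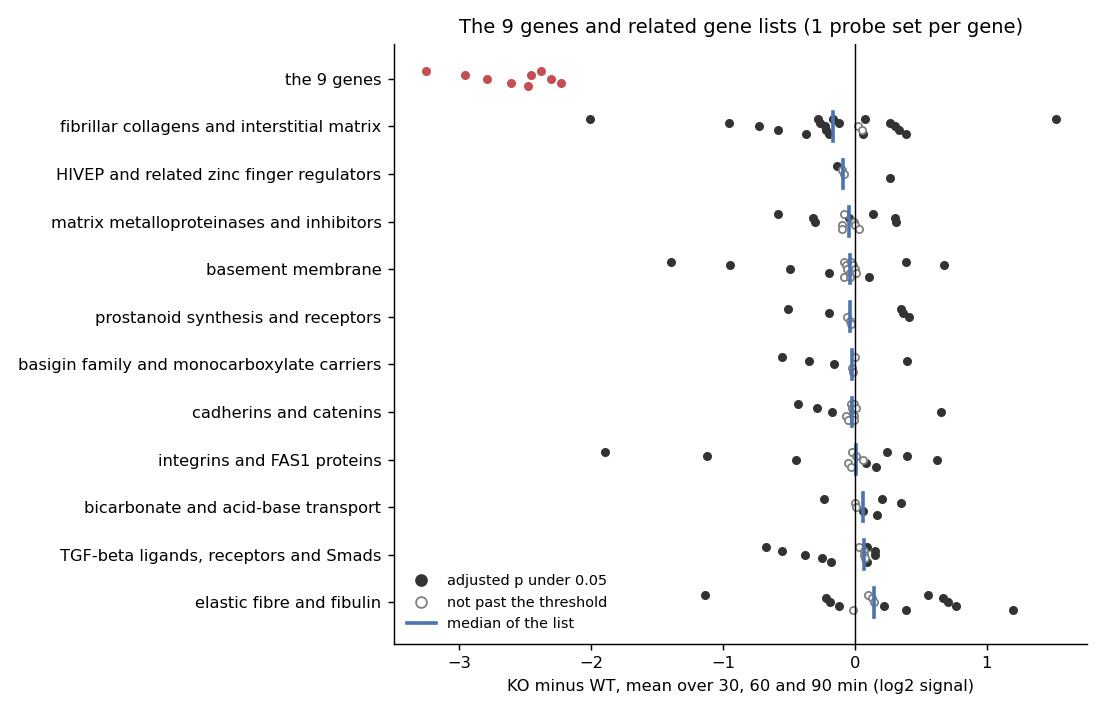
KO minus WT in log2 signal over 30 to 90 min (horizontal axis) for the 9 genes (red) and for the genes of 11 related lists (1 row per list, 1 point per gene, filled where the adjusted p is under 0.05, blue bar at the list median). The medians of the 11 lists lie between -0.17 and 0.14, and no listed gene reaches the -2.23 of the member nearest to 0. That gap follows from the choice of the 9 as genes far lower in KO.

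The genes on either side of the 9 in gene order were compared with them. Of 90 neighbours, 5 tested genes on each side of each of the 9, 21 were lower (23.3%) and 25 higher (27.8%), with a median difference of -0.01, close to the shares over all genes. Around Cdh11 and Nid2, 0 of 10 neighbours were lower. Around Emb 6 of 10 were lower, among them Itga1 at -1.12, and around Mmp2 5 of 10, among them Irx3, a homeobox gene, at -1.12. Next to Slc4a4, Afp, which encodes alpha-fetoprotein, differed by -0.87, while 5 of its 10 neighbours were higher.

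Genes outside the set with the closest profile over the 10 group means were sought among 454 genes whose means ranged over at least 1 log2 unit. The 6 with the highest Pearson r with the mean of the 9 were Steap4, Thbs2, Pdlim2, Mgp, Bicc1 and Palm2, with r of 0.9988 to 0.9998 over 10 groups. Steap4, a metalloreductase, had group means of 8.35 to 8.37 in KO and 10.04 to 10.13 in WT, and Mgp had 9.90 to 10.08 in KO and 11.93 to 12.03 in WT. These profiles are a step between the lines with little change over time, and 65 of the 454 had r over 0.99. The r of the 9 with their own mean was 0.993 for Hivep3, the lowest, and up to 0.9998 for Efemp1.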

How the data were processed

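RNA of KO and WT fibroblasts was measured on Affymetrix Mouse Genome 2.0 arrays, from 1 µg of total RNA per sample, per the labels' protocols. The deposited values are log2 signals per probe set and array. The log base was inferred from their range, up to 13.43, and the sources used here do not state how the authors summarised probes, corrected background and normalised arrays. Low values lie close together, so changes that end near the floor can be understated. The number of arrays limits the precision. Replicates of a line are separate dishes on separate days. The main fits hold no experiment term, so arrays of 1 experiment at different times counted as independent, and the pairing of lines was not used. P-values measure the spread of arrays within groups on that footing, which is not the spread over 5 days.

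Of 45101 probe sets, 64 controls were left out, and 27500 with a value above the array median in at least 4 arrays were tested. Symbols come from the platform annotation and gene order from GRCm38.p6, in which 12949 of 13018 symbols matched. Models were fitted in R 4.3.3 (limma 3.58.1 and the data.table package, version 1.17.8), with limma's trend and robust options, Benjamini-Hochberg adjustment over all 27500, a threshold of 0.05 and two-sided tests. KO minus WT was fitted with 1 mean per group on the 29 arrays at 30, 60 and 90 min, and slopes as a line per genotype on all 48. Each fit used 1 spread per probe set for both lines, so where the lines differed in spread, an SE measures neither line alone. A gene's main probe set is that with the highest mean over all arrays.

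The replicate number is the experiment, with both lines side by side per the series text, so numbers pair samples. Deviations of same-numbered KO and WT arrays correlated at -0.248 to 0.604, with a median of 0.172 over 23 pairs, 16 of them above 0.1.

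On simulated data of 27500 probe sets, the KO minus WT fit recovered 100% of 100 changes of 0.5 and 100% of 100 of 2 log2 units, with 17 false calls. The slope difference fit recovered 63% of 100 changes of 0.15 and 94% of 100 of 0.4 log2 per h, with 10 false calls. The simulated noise was independent between arrays and equal in both lines, with no shared experiment and no floor. These rates do not carry over to probe sets where the arrays depart from that.

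The members and gene lists were chosen with earlier results of these data known. Named were the 9 genes with all their probe sets, in each list the 2 lowest and 2 highest among the genes called, the 6 genes of closest profile, the 12 genes lowest at 0 and 120 min, and Zfp36. Also named, after their values were seen, were Nid1, Pdgfra, Cd14, Ptprc, other marker genes, neighbours of the 9, and the probe sets lowest in KO experiments 4 and 5. Alternatives were a background subtraction, other filters and scalings, the experiment as a block, the contrast at each time alone, and leaving out experiments.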

Additional observations from a re-analysis of the deposited data

Results flagged for a closer look

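Of 90 groups of arrays examined (9 main probe sets in 10 groups), 6 held an array far from the others of its group by Dixon's test, where chance flags about 1 in 20. Tgfbi in KO held a pair of them, with 8.399 at 0 min in experiment 4, where the nearest of the other arrays read 9.688, and 8.449 at 60 min in experiment 5, where the nearest read 9.876. Both belong to the split between experiments, and at 30, 90 and 120 min, with 2 low arrays each, the test cannot mark them. Hivep3 in WT read 10.677 at 0 min in experiment 4, below a nearest value of 10.850, and 10.908 at 90 min in experiment 2, above a nearest value of 10.623. Cdh11 in WT read 10.977 at 60 min in experiment 5, below a nearest value of 11.157. Nid2 in KO read 8.763 at 120 min in experiment 5, above a nearest value of 8.724.

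The main probe sets of 2 genes differed in slope between the lines by the test of the difference itself (limma), with KO minus WT of 0.15 log2 per h for Cdh11 (adjusted p = 0.00235) and 0.23 for Hivep3 (adjusted p = 0.0152). The other tested probe set of each gene showed no such difference (limma, adjusted p = 0.983 for Cdh11 and 0.948 for Hivep3). On the main probe sets, WT fell between 0 and 120 min in 5 of 5 experiments for both genes. The KO signals of both lie near the floor, where a fall could not be measured, and the test uses the 0 and 120 min arrays that chose the genes. It was not past the threshold in the 30 to 90 min arrays alone (limma, adjusted p = 1.0 for both), without experiment 1 (0.058 for Cdh11 and 0.253 for Hivep3) or with the array background subtracted (0.639 and 0.317).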

How the results depend on the processing

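For each of the 9 genes KO stayed lower over 30 to 90 min and past the threshold in 17 of 17 recomputed fits, which share arrays. These 153 results gave differences of -5.09 to -2.08 and adjusted p (limma) of at most 7.06e-07. The widest came with the 5th percentile of each array subtracted before log2, which spreads low signals by its construction. The deposited values hold no detection calls, so how far signals near the floor fall is not measured. With the subtraction, 1 member probe set rose in WT, 1 rose in KO (Emb, 0.27 log2 per h) and 0 had a slope difference, while 26 of all probe sets had one below 0, and the slope difference of Emb turned to 0.11 (adjusted p = 0.862). With the experiment as a replicate block, the probe sets with a slope difference numbered 414 above and 120 below 0, against 216 and 69 without it, and no call of a member changed. Leaving out each experiment in turn gave 82 to 271 above 0 (82 without experiment 1, 106 without experiment 2 and 108 without experiment 4) and 45 to 72 below 0 (45 without experiment 2), and 0 to 2 of the member probe sets above 0 (0 without experiment 1, 1 without experiment 4 or 5). In experiments 1 to 3 alone, a grouping chosen after the values were seen, 4 member probe sets rose in KO, those of Tgfbi. There 1 member probe set had a slope difference above 0 and 124 of all did. In experiments 4 and 5 alone these last counts were 0 and 124. In arrays at 30 to 90 min alone 1 member probe set fell in WT, 0 rose, 0 had a slope difference, and 6 and 3 of all had one above and below 0. Without the arrays at 0 min, 0 rose in WT, 1 had a slope difference above 0, and 63 and 32 of all were above and below. The contrast at each time alone gave fewer calls of KO against WT than the 6157 lower and 6250 higher of the main fit. It gave 3399 lower and 4090 higher at 30 min, 3607 and 3040 at 60 min, and 3768 and 3884 at 90 min. The cause of these lower counts and of the other changes was not tested.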
